A study of Mus musculus with 4 samples.

Results

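Chemokines are small secreted proteins that draw leukocytes along a gradient, and chemokine receptors are the membrane proteins through which cells sense them. The genes described here are those whose name on the array began with Ccl, Cxcl, Ccr or Cxcr followed by a digit, together with *Cx3cl1*, *Cx3cr1*, *Xcl1* and *Xcr1*. The rule used names only and no measured value. It took in 55 genes, of which 35 are ligands and 20 are receptors, out of 27340 genes on the array, and 71 of 41174 probes.

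In lymphoid tissue, *Ccl19* and *Ccl21a* guide cells that carry *Ccr7*, and *Cxcl13* guides B cells that carry *Cxcr5* into follicles. The colon wall holds many such follicles, and the epithelium above them makes *Ccl20*, the ligand of *Ccr6*. The lining itself makes *Ccl28*, which attracts antibody-producing cells, and *Cx3cl1*, the ligand of *Cx3cr1* on macrophages, while *Ccl2* and its neighbours draw monocytes through *Ccr2*, *Cxcl1* and *Cxcl5* draw neutrophils, and *Cxcl9* and *Cxcl10* draw activated T cells through *Cxcr3*.

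Expression was measured on 4 dual-color arrays in C57BL/6 mice, which were males of 6 to 8 weeks. The *Rspo3* KO mice were Myh11CreErt2/Rspo3 fl/fl and their littermate controls Myh11CreErt2/Rspo3+/+. Both carried the Cre and received tamoxifen, and colon RNA was taken 2 weeks later. The Myh11 promoter drives the Cre in smooth muscle and myofibroblasts, so *Rspo3* was targeted in those cells. Each of 2 arrays compared 1 KO mouse with 1 control mouse, with the dyes reversed on the second, which gave 2 pairs of mice. The other 2 arrays compared Axin2+ with Axin2- epithelial cells of the colon of Axin2CreErt2/Rosa26-tdTomato mice, sorted 24 h after tamoxifen for the tdTomato reporter and for an epithelial surface antigen, with the cells of 3 mice pooled. Both arrays of this experiment carried the same pools with the dyes reversed and count as 1 replicate, so no test was made on them. The labels give distal colon and TRIzol extraction for the KO arrays, whereas the study's methods give colon and a column kit.

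Loss of *Rspo3* could not be seen with these probes: the brighter was not well above background on the array of pair 1 and had a log2 ratio of 0.17 on that of pair 2. *Lgr5*, a stem cell receptor gene that depends on R-spondin, was lower in both KO mice, where its signal was not well above background, than in the controls, where it was. In the sorted cells *Axin2* was higher in Axin2+ cells (log2 ratios 1.35 and 1.30), and *Epcam*, which encodes the antigen used for the sort, differed little (0.04 and 0.03). Across all genes the log2 ratios of the KO pairs correlated weakly (Pearson's r = 0.03 over 15372 genes), and those of the technical Axin2 arrays closely (0.92 over 15879 genes). Over the chemokine genes measured, r was 0.67 between the KO pairs (38 genes) and 0.95 between the Axin2 arrays (23 genes). These are correlations across genes, which are not independent replicates.

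A gene was counted as measured if, on each array of an experiment, its brightest probe stood well above background in 1 or both channels. On the KO arrays 38 of the 55 genes were measured (28 ligands and 10 receptors), on the Axin2 arrays 23 (18 ligands and 5 receptors), and 21 in both. Measured in neither experiment were *Ccl1*, *Ccl22*, *Ccr1*, *Ccr10*, *Ccr1l1*, *Ccr3*, *Ccr4*, *Ccr8*, *Cxcl2*, *Cxcl3*, *Cxcl11*, *Cxcl15*, *Cxcl17*, *Cxcr1* and *Cxcr2*. Levels are given as normalised log2 signals of each channel, and 1 unit is a 2-fold difference. Ratios are log2 of KO over control or of Axin2+ over Axin2-. Because 50 was added to each background-corrected signal, ratios of dim probes are drawn towards 0.

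Promoters are shown for 5 ligands, to set those lower in KO mice (*Ccl19*, *Cxcl13*) beside those higher (*Cxcl10*, *Ccl12*, *Ccl8*). Each is the 250 bases before the gene's start in RefSeq (GRCm38.p6), read 5′ to 3′ on the strand of the gene. *Ccl19* lies at chr4:42756366-42756615 and *Cxcl10* at chr5:92348890-92349139, both on the minus strand. *Cxcl13* lies at chr5:95956689-95956938, *Ccl12* at chr11:82101595-82101844 and *Ccl8* at chr11:82114935-82115184, all on the plus strand. Capitals mark matches, on either strand, to GGGNNNTTCC (a core of NF-kB sites), GAAANNGAAA (a core of interferon response elements) and TATAAA (the TATA box), and no match overlapped another.
Ccl19: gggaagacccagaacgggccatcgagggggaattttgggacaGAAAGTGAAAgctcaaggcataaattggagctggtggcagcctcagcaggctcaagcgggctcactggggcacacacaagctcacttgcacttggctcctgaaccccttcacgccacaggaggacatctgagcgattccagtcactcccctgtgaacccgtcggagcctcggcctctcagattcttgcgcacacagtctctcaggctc
Cxcl13: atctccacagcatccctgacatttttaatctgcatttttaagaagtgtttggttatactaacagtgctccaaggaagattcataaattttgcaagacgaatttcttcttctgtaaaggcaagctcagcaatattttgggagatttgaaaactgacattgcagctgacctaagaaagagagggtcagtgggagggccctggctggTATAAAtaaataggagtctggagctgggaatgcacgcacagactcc
Cxcl10: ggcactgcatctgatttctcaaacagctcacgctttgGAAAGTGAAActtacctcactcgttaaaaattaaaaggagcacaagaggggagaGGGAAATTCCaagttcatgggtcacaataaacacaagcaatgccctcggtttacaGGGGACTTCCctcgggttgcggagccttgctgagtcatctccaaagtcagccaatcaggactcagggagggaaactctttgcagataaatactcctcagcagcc
Ccl12: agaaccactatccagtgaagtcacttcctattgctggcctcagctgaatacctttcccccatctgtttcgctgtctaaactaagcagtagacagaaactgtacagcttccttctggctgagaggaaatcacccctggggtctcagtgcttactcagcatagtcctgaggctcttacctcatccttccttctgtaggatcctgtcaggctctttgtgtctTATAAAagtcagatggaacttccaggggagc
Ccl8: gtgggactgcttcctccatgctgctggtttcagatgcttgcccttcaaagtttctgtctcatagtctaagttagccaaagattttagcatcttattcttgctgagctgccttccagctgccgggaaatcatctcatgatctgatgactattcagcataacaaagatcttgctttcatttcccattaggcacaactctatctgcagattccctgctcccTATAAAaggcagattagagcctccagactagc
The *Cxcl10* window held 2 matches to the NF-kB core, starting 159 and 104 bases before the start, and 1 to the interferon core at 213 bases. The *Ccl19* window held the same interferon core letters at 208 bases. *Ccl12* and *Ccl8*, which are neighbours on chromosome 11, each held a TATA box, at 31 and 32 bases, and *Cxcl13* held one at 46 bases. Of the 32851 windows of this length in the table, 4.65% held the NF-kB core, 2.98% the interferon core and 12.4% the TATA box. The table held a promoter for 41 of the 55 genes. A match describes letters and shows no binding.

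In *Rspo3* KO colon, chemokine genes lay on both sides of the control level. Several genes of lymphoid follicles were lower: *Ccl19* fell by 2.20 on the log2 scale (4.59-fold), and *Cxcr5*, *Cxcl13*, *Ccr6* and *Ccr7* were lower in both pairs without passing the test. Of these, *Ccr7* counted as measured only through the controls, where it was higher. Higher in both pairs were 8 of the 13 measured ligands for monocytes, T cells and eosinophils, among them *Ccl2* (2.34-fold), *Ccl7*, *Ccl8* and *Ccl12*, both measured ligands for neutrophils, *Cxcl1* and *Cxcl5*, and *Cxcl10* (3.11-fold). The 8 include *Xcl1*, which counted as measured only through the KO mice, where it was higher. *Ccl28* and *Ccl20* of the epithelium were also higher in both pairs. None of the higher genes passed the test. Across all genes 20.3% were higher in both pairs and 23.9% lower.

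By limma with Benjamini-Hochberg adjustment over all 15372 genes, 1 chemokine gene (*Ccl19*) was called lower, where 0.111% of all genes were, and 0 were called higher, where 0.130% were. At an unadjusted p under 0.05 the measured chemokine genes numbered 10 higher and 6 lower, against 1.95% and 2.69% of all genes. By the study's own kind of rule, a mean past 1.5-fold with the same sign in both pairs, 10 of the 38 were higher and 7 lower, against 1.85% and 2.47% of all genes. The signals of both KO mice lay above those of both controls for 13 genes and below them for 9, against 13.1% and 16.3% of all genes. The 13 include *Xcl1* and the 9 include *Ccr7*, each counted as measured only through the side where it was higher. The median log2 ratio of the 38 was 0.14, and that of all genes -0.01. In a bulk tissue, fewer cells of a type and less RNA per cell cannot be told apart.

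**Figure D1:**
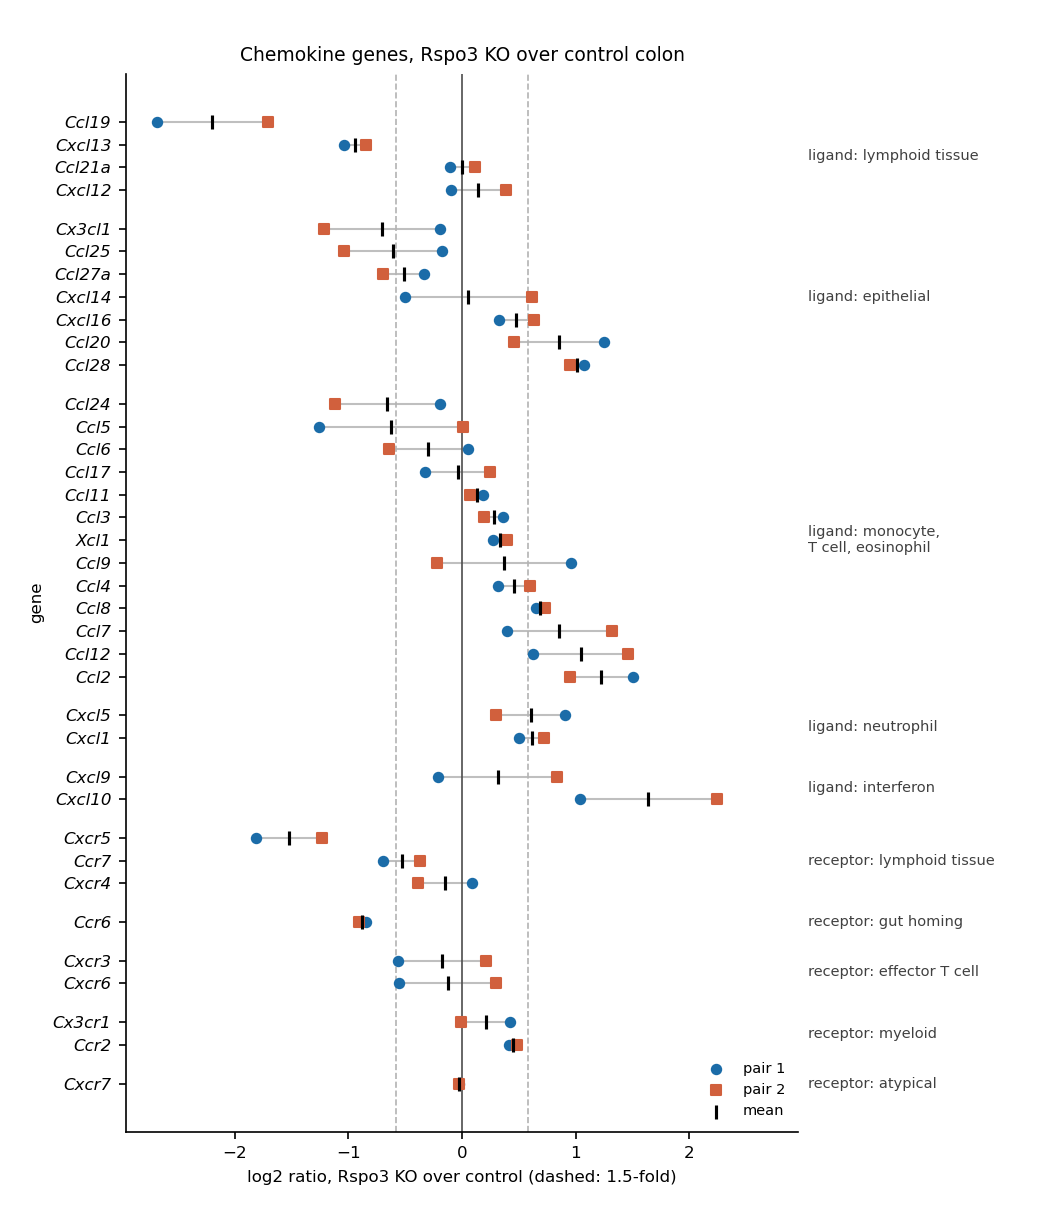
Log2 ratio of *Rspo3* KO over control (x axis) for 37 of the 38 measured chemokine genes (y axis), grouped by role, with 1 circle for pair 1, 1 square for pair 2 and a tick for their mean. *Ccl19* lies farthest left, at -2.69 and -1.71, and *Cxcl10* farthest right, at 1.04 and 2.24.

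Of the 4 measured ligands of lymphoid tissue, *Ccl19* was the gene that passed. The log2 signal of *Ccl19*, made by stromal cells of T cell zones, was 11.10 in the control and 8.41 in the KO mouse of pair 1, and 9.71 and 8.0 in pair 2. Both KO mice lay below both controls, and the controls themselves differed by more than the KO mice. The mean log2 ratio was -2.20 ± 0.69 (SD, n = 2 pairs), with an adjusted p of 0.0327 by limma. A second *Ccl19* probe gave -2.21 and -1.48. The call was lost, with the direction kept, when the background was fitted to all spots (adjusted p = 0.267), when ratios were centred on the median alone (0.897), without a filter on dim probes (0.693) and with the mean over probes (0.150). The mouse genome holds near-identical copies of *Ccl19*, *Ccl21a* and *Ccl27a*, and which copy the signal came from was not resolved.

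*Ccl21a*, the other ligand of *Ccr7*, lies next to *Ccl19* on chromosome 4 and did not share its difference. Its ratios were -0.10 and 0.11 (mean 0.00 ± 0.15, SD, n = 2 pairs). Signals for *Ccr7* itself, the receptor of both, were 6.89 in the control and 6.20 in the KO mouse of pair 1, and 6.63 and 6.26 in pair 2. Neither KO signal was well above background. Both control signals were, so the filter took in *Ccr7* only through the side where it was higher. The mean of *Ccr7* was 1.44-fold lower, with an adjusted p of 1 by limma. With the background fitted to all spots its mean log2 ratio was -0.21.

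*Cxcl13*, the ligand that brings B cells into follicles, had log2 signals of 8.45 in the control and 7.41 in the KO mouse of pair 1, and of 8.42 and 7.57 in pair 2. Its receptor *Cxcr5*, carried by B cells and follicular helper T cells, went from 8.51 to 6.70 and from 7.80 to 6.56. For both genes the KO mice lay below both controls. The mean log2 ratio was -0.94 ± 0.14 (SD, n = 2 pairs) for *Cxcl13*, with an adjusted p of 0.353 by limma, and -1.52 ± 0.41 for *Cxcr5*, with 0.0885. *Cxcr5* passed the test with no background correction (adjusted p = 0.0211), with an offset of 16 (0.00133) and on the software's own log ratios (0.00594). It also passed in a fit of all 4 arrays with a dye term (0.00129), a fit that takes part of its spread from repeats of the same RNA. With the background fitted to all spots, the mean log2 ratio of *Cxcr5* shrank to -0.77 and it did not pass (adjusted p = 0.9996 by limma).

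*Ccr6*, the receptor by which B cells and T helper cells respond to *Ccl20*, was 7.61 in the control and 6.77 in the KO mouse of pair 1, and 7.67 and 6.76 in pair 2. Its ratios of -0.85 and -0.91 were the closest to each other among the lower genes past 1.5-fold, and limma gave an adjusted p of 0.431. *Cxcl12*, a ligand that stromal cells make in most tissues, had ratios of -0.10 and 0.39, and its receptor *Cxcr4* had 0.09 and -0.39. Neither passed, and for both the pairs disagreed in direction, although a second *Cxcl12* probe gave 0.27 and 0.26.

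**Figure D2:**
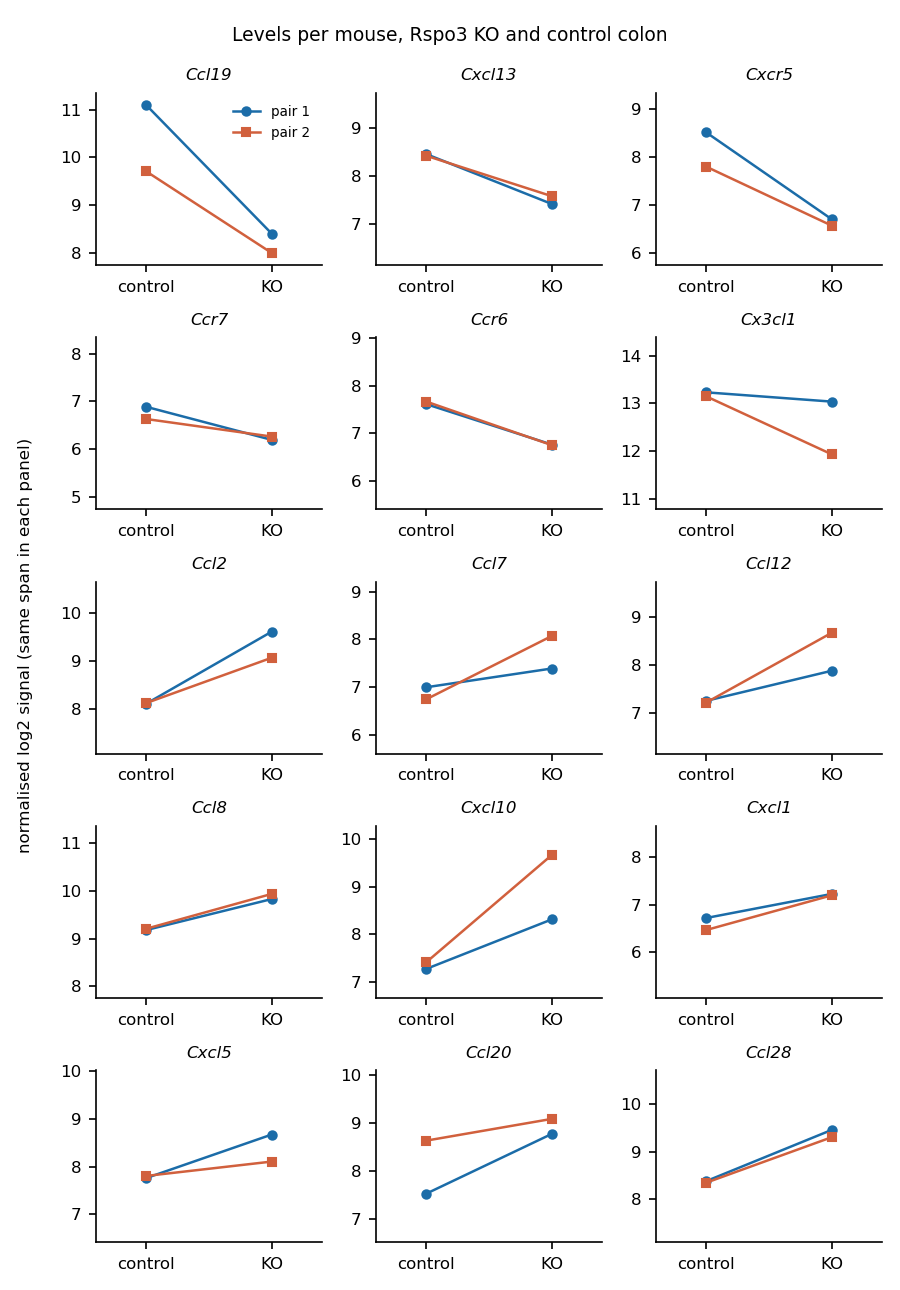
Normalised log2 signal (y axis, the same span in each panel) of 15 chemokine genes in the control and the *Rspo3* KO mouse (x axis) of pair 1 (circles) and pair 2 (squares), with a line joining the mice of a pair. *Ccl19*, *Cxcl13*, *Cxcr5*, *Ccr7*, *Ccr6* and *Cx3cl1* slope down in both pairs and the other panels slope up.

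Markers of B and T cells were lower beside these genes. Of 9 B cell markers 6 were measured, and all 6 were lower in both pairs (median log2 ratio -0.65), with *Ms4a1*, which encodes CD20, called lower (-2.75 and -2.27, adjusted p = 0.0128 by limma). Across all genes 23.9% were lower in both pairs. The mean log2 signal of the B cell markers was 6.49 and 6.68 in the KO mice, and 7.78 and 7.60 in the controls. *Cd79b*, part of the B cell receptor, had ratios of -2.49 and -1.29, and *Blk*, *Cd79a* and *Pax5* were not measured. Of 10 T cell markers 6 were measured, of which 5 were lower in both pairs (median -0.57), with a mean signal of 6.61 and 6.88 in KO mice and 7.58 and 7.16 in controls. The T cell median was -0.84 in pair 1 and -0.22 in pair 2, and *Cd2* was well above background in the controls alone. Markers shared by all leukocytes split, with 2 of 5 lower in both pairs, 1 higher and 2 differing in sign. Among them *Ptprc* (CD45) had -0.82 and 0.06. The part of B and T cells in the lower *Ccl19*, *Cxcl13*, *Cxcr5*, *Ccr6* and *Ccr7* was not tested.

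The largest group of ligands, those for monocytes, T cells and eosinophils, had 13 of 15 members measured. In this group 8 were higher in both pairs, 1 was lower in both, and 4 differed in sign. Among the 8 was *Xcl1*, which was well above background in the KO mice alone. It therefore counted as measured only through the side where it was higher. The shares over all genes were 20.3% higher and 23.9% lower. Past 1.5-fold alike were *Ccl2*, *Ccl12*, *Ccl7* and *Ccl8*, all higher, and *Ccl24*, lower. None passed limma's test, and 4 higher and 1 lower had an unadjusted p under 0.05, where 1.95% and 2.69% of all genes did.

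*Ccl2*, the chief attractant of monocytes, had log2 signals of 8.11 in the control and 9.62 in the KO mouse of pair 1, and of 8.12 and 9.07 in pair 2. *Ccl12*, another monocyte attractant of the mouse, went from 7.26 to 7.89 and from 7.22 to 8.68. The controls were almost alike for both genes, and both KO mice lay above them. The mean log2 ratio of *Ccl2* was 1.23 ± 0.39 (SD, n = 2 pairs; adjusted p = 0.207 by limma) and that of *Ccl12* 1.04 ± 0.59 (0.435).

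*Ccl7*, another ligand of *Ccr2*, had signals of 7.0 in the control and 7.39 in the KO mouse of pair 1, and of 6.75 and 8.07 in pair 2. *Ccl8* went from 9.18 to 9.83 and from 9.20 to 9.93. Both were higher in KO mice with no overlap, and *Ccl8* was more even between the pairs. Their mean log2 ratios were 0.86 ± 0.66 and 0.69 ± 0.06 (SD, n = 2 pairs), each with an adjusted p of 0.740 by limma. A second *Ccl7* probe gave 0.17 and 1.07.

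These 4 genes are neighbours. With *Ccl11* and *Ccl1* they span 139.7 kb of chromosome 11 by the positions of their probes (mm9, chr11:81850650-81990395), and all 5 measured members of the stretch were higher in both pairs, with a median log2 ratio of 0.86. *Ccl11*, an attractant of eosinophils, was the least different (0.18 and 0.07), and *Ccl1* was not measured. A further group of CC ligands on the same chromosome (chr11:83339296-83478111) did not show this. There *Ccl3* (0.36 and 0.19) and *Ccl4* (0.31 and 0.60), which macrophages and T cells make, were higher in both pairs, and *Ccl5*, *Ccl6* and *Ccl9* differed in sign between them, with none of the 5 past 1.5-fold alike.

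*Ccl5*, a ligand that activated T cells make, was 10.37 in the control and 9.12 in the KO mouse of pair 1, and 9.22 and 9.23 in pair 2. On this probe the difference lay in pair 1, where the control was high, and a second, dimmer probe gave -0.95 and -0.21. *Ccl24*, an attractant of eosinophils, was 8.70 in the control and 8.50 in the KO mouse of pair 1, and 8.51 and 7.39 in pair 2. Most of its mean log2 ratio of -0.66 ± 0.65 (SD, n = 2 pairs) therefore came from pair 2, and its second probe gave -0.08 and -0.65.

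Among the receptors of these ligands, *Ccr2*, which monocytes carry into tissue, had ratios of 0.42 and 0.48 and did not reach 1.5-fold. *Cx3cr1*, carried by gut macrophages, had 0.42 and -0.01. Of 9 macrophage markers all 9 were measured, 6 were higher in both pairs and 1 lower (median 0.20), with a mean log2 signal of 9.93 and 9.72 in KO mice and 9.72 and 9.54 in controls. *Adgre1*, which encodes F4/80, had 0.72 and 0.66. Across all genes 20.3% were higher in both pairs and 23.9% lower. Fibroblast markers had a median of 0.30 (6 of 6 measured, 2 higher in both pairs, 4 differing in sign), with mean signals of 12.30 and 12.41 in KO mice and 11.92 and 12.20 in controls. Smooth muscle markers had 0.24 (5 of 6 measured, 4 higher in both pairs, 1 differing in sign), with 13.05 and 13.32 against 12.76 and 13.15. Plasma cell markers had 0.31 (5 of 5 measured, 2 higher in both pairs, 3 differing in sign), with 9.29 and 9.58 against 9.48 and 8.72. The part of these cells in the higher *Ccl2*, *Ccl7*, *Ccl8* and *Ccl12* was not tested.

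*Cxcl10*, a ligand that interferon induces, was 7.28 in the control and 8.31 in the KO mouse of pair 1, and 7.42 and 9.66 in pair 2. Both KO mice lay above the controls, by more in pair 2. The mean log2 ratio of 1.64 ± 0.85 (SD, n = 2 pairs) had an adjusted p of 0.169 by limma. It passed with no background correction (adjusted p = 0.0380), with an offset of 16 (0.00409), on the software's log ratios (0.0244) and in the fit of all 4 arrays (0.00461). With the background fitted to all spots, the mean log2 ratio of *Cxcl10* was 1.21 and it did not pass (adjusted p = 0.9996 by limma). *Cxcl9*, which lies beside it on chromosome 5, did not follow in pair 1 (-0.21 and 0.84). Their shared receptor *Cxcr3* had -0.57 and 0.21.

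Of the 5 neutrophil ligands, *Cxcl1* and *Cxcl5* were measured and both were past 1.5-fold higher. *Cxcl1* signals were 6.72 in the control and 7.22 in the KO mouse of pair 1, and 6.47 and 7.19 in pair 2. For *Cxcl5* they were 7.76 and 8.67, and 7.81 and 8.11. In each gene both KO mice lay above both controls, with mean log2 ratios of 0.61 ± 0.16 and 0.61 ± 0.43 (SD, n = 2 pairs) and adjusted p-values of 0.913 and 1 by limma. Their receptors *Cxcr1* and *Cxcr2* were not measured. Of 7 neutrophil markers 5 were measured, of which 2 were higher in both pairs and 3 differed in sign. Their mean log2 signal was 7.58 and 7.25 in KO mice and 7.12 and 7.29 in controls. Their part in *Cxcl1* and *Cxcl5* was not tested.

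Epithelial ligands split. *Ccl28*, which brings antibody-producing cells to the colon through *Ccr10*, was 8.38 in the control and 9.45 in the KO mouse of pair 1, and 8.35 and 9.30 in pair 2. Its mean log2 ratio of 1.01 ± 0.09 (SD, n = 2 pairs), with an adjusted p of 0.297 by limma, was nearly the same in both pairs. *Ccl20* was 7.52 and 8.77 in pair 1, and 8.63 and 9.09 in pair 2. Both KO mice exceeded both controls, with a mean of 0.85 ± 0.56 and an adjusted p of 0.684. *Ccl20* was thus higher while its receptor *Ccr6* was lower, neither past the test. *Cxcl16*, the ligand of *Cxcr6*, had ratios of 0.32 and 0.63, its second probe had -0.33 and 0.59, and *Cxcr6* had -0.55 and 0.30.

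The other epithelial ligands leaned the other way. *Cx3cl1*, the membrane-bound ligand of *Cx3cr1*, was 13.23 in the control and 13.04 in the KO mouse of pair 1, and 13.15 and 11.94 in pair 2. *Ccl25*, which draws *Ccr9*-bearing cells, was 10.19 and 10.02 in pair 1, and 10.36 and 9.32 in pair 2. Pair 2 carried most of both differences, and the mean log2 ratios of -0.70 ± 0.72 and -0.60 ± 0.61 (SD, n = 2 pairs) had an adjusted p of 1 by limma. A second, dimmer *Ccl25* probe did not show the difference in pair 1 (0.03 and -0.28). *Ccl27a* had -0.33 and -0.69, *Cxcl14* differed in sign (-0.51 and 0.61), and *Ccr9* was not measured on these arrays.

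Genes that bind chemokines or carry their signal were counted as well. Of 6 atypical receptors and platelet chemokines outside the name rule, all 6 were measured, 3 were higher in both pairs and 0 passed limma's test (0 at an unadjusted p under 0.05). *Ackr1*, which carries chemokines across venules, had 0.40 and 0.63. Of 21 genes of receptor signalling 19 were measured, 5 higher and 7 lower in both pairs, with 0 called and 0 at an unadjusted p under 0.05. The shares over all genes were 20.3% higher and 23.9% lower in both pairs. The Rac GTPase gene *Rac2* of leukocytes had the lowest mean of the signalling genes, with ratios of -0.72 and -0.23. *Cxcr7*, the atypical receptor that removes *Cxcl12*, had -0.03 and -0.02.

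**Figure D3:**
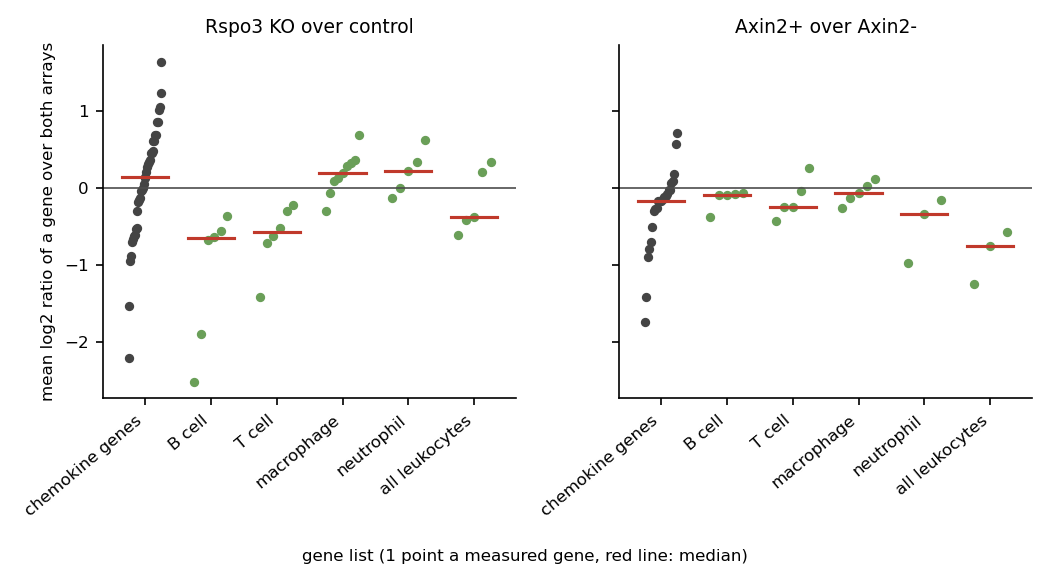
Mean log2 ratio of each measured gene over both arrays (y axis) for chemokine genes and for marker lists of leukocytes (x axis), in *Rspo3* KO over control (left) and Axin2+ over Axin2- (right), with the median as a red line. In the KO pairs the medians are -0.65 for B cells, -0.57 for T cells and 0.20 for macrophages, and in the sorted cells that of all leukocytes is -0.75.

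In the sorted epithelium the comparison was between Axin2+ cells of the crypt base and the remaining Axin2- cells. Chemokine genes were mostly lower in Axin2+ cells: *Ccl5*, *Ccl6*, *Ccl20*, *Ccl24* and *Cx3cl1* were past 1.5-fold lower on both arrays, and *Cxcr7* was past 1.5-fold higher. That is 5 of 23 lower and 1 higher, against 6.92% and 7.87% of all 15879 genes. Of the 23 genes, 15 were lower on both arrays, 3 higher and 5 differed in sign, with a median log2 ratio of -0.17. Of the lower genes, *Ccl2*, *Ccl4*, *Ccl24* and *Xcl1* were well above background in Axin2- cells alone. They therefore counted as measured only through the pool where they were higher. The median under other filters is given in the last section. Across all genes 41.7% were lower on both arrays and 41.1% higher. These values compare a pool with a pool and have no replicate check, and the spread between arrays is technical.

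**Figure D4:**
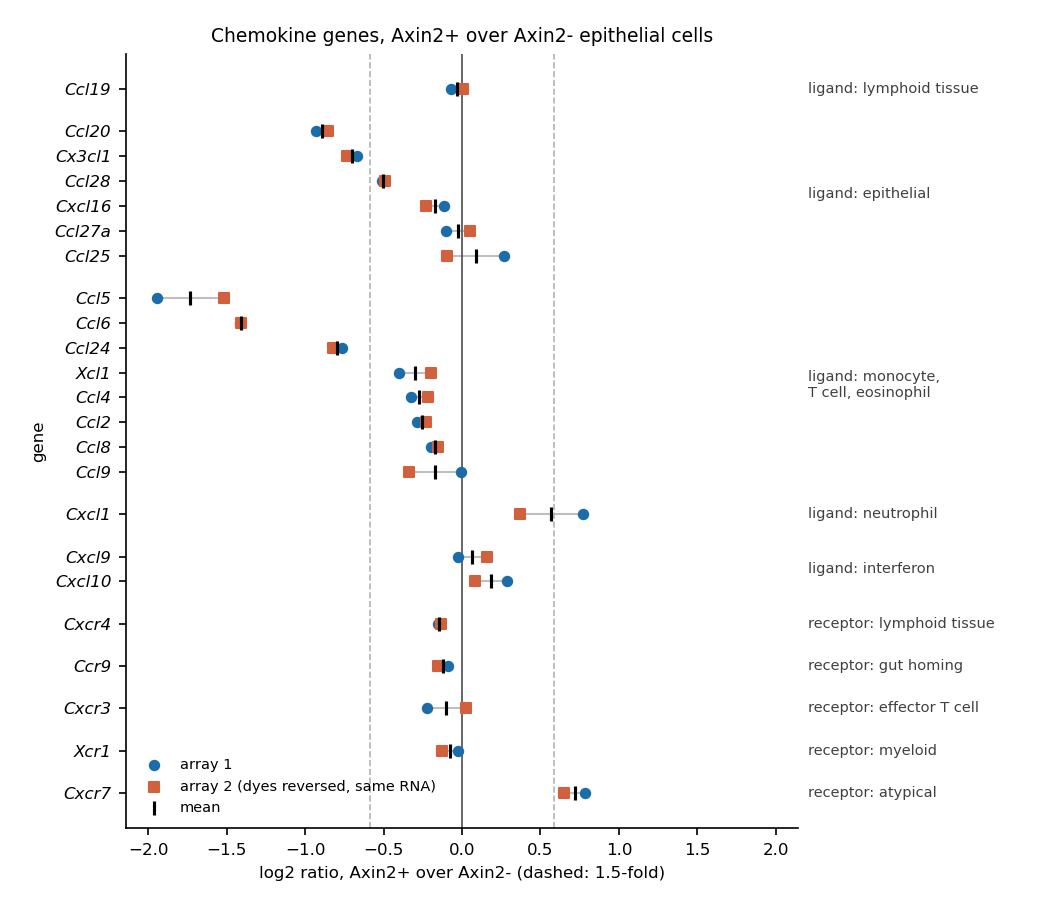
Log2 ratio of Axin2+ over Axin2- cells (x axis) for the 23 measured chemokine genes (y axis), grouped by role, on both dye-reversed arrays of the same RNA (circles and squares) with a tick for the mean. *Ccl5* and *Ccl6* lie farthest left and *Cxcr7* farthest right, at 0.79 and 0.65.

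*Ccl5* differed most. Its log2 signal was 7.63 in Axin2+ and 9.58 in Axin2- cells on array 1, and 7.99 and 9.51 on array 2, a mean log2 ratio of -1.73 (3.32-fold). Its second probe gave -1.39 and -1.34. *Ccl6*, a ligand of myeloid cells in the mouse, was 13.56 and 14.97 on array 1, and 13.53 and 14.94 on array 2, a mean of -1.41 (2.66-fold). Both were high in Axin2- cells on either array, with *Ccl6* almost identical between arrays.

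*Ccl20* was 7.25 in Axin2+ and 8.18 in Axin2- cells on array 1, and 7.62 and 8.47 on array 2, a mean log2 ratio of -0.89. *Ccl24* was 5.94 and 6.71, then 6.61 and 7.43. Its Axin2+ signal was not well above background on either array. With the lowest signal well above background taken as a floor, *Ccl24* was 1.69-fold lower. Its second, dimmer probe gave -0.40 and -0.37. *Cx3cl1* was 11.45 and 12.12, then 11.42 and 12.15, a mean of -0.70, although its dimmer second probe, with ratios of 0.20 and -0.06, did not show this. *Ccl28* fell short of 1.5-fold, at 9.09 and 9.60 on array 1 and 9.01 and 9.50 on array 2. All of these ligands were thus lower in Axin2+ cells on both arrays.

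*Cxcr7* was 8.02 in Axin2+ and 7.23 in Axin2- cells on array 1, and 7.79 and 7.13 on array 2, a mean log2 ratio of 0.72 (1.65-fold). It was the sole receptor that differed past 1.5-fold. *Cxcl1* was 8.89 and 8.12, then 8.61 and 8.24, a mean of 0.57 that fell just short of 1.5-fold, and it was past 1.5-fold on array 1. *Cxcl12*, the ligand that *Cxcr7* removes, was not measured in these pools, nor were *Cxcl13*, *Ccr6*, *Ccr7*, *Cxcr5* and *Cx3cr1*. *Ccl25* (0.27 and -0.10), *Cxcl9* (-0.02 and 0.16), *Cxcl10* (0.28 and 0.08), *Cxcl16* (-0.11 and -0.23), *Cxcr4* (-0.16 and -0.14) and *Ccr9* (-0.09 and -0.15) lay near 0. Second probes gave 0.16 and 0.04 for *Cxcl16*, 0.22 and -0.34 for *Cxcr4*, and 0.04 and 0.07 for *Ccl25*.

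Signals of leukocyte genes were present in the sorted pools, and those shared by all leukocytes were lower in Axin2+ cells. Of 5 markers shared by leukocytes 3 were measured and all 3 were lower on both arrays: *Ptprc*, which encodes CD45, at -0.65 and -0.50, *Cd52* at -1.35 and -1.14, and *Coro1a* at -0.65 and -0.85, while *Cd53* and *Laptm5* were not measured. Their mean log2 signal was 6.67 and 7.0 in Axin2+, and 7.55 and 7.83 in Axin2- cells. *Cd3e* of T cells was well above background in both pools with ratios of -0.24 and -0.25, and over 5 of 10 T cell markers the median was -0.24, with mean signals of 7.57 and 7.65 against 7.70 and 7.80. *Lck*, a kinase of T cells, had 0.51 and -0.0030. Macrophage markers split, with 2 lower on both arrays, 2 higher (*Cd14* at 0.12 and 0.13, *Cd68* at 0.01 and 0.04) and 1 differing in sign. Their median was -0.06 over 5 of 9, with mean signals of 7.55 and 7.61 against 7.60 and 7.66, and *Adgre1*, *C1qc*, *Cd163* and *Mrc1* were not measured. The sort kept cells with the epithelial antigen. In Axin2+ cells *Ccl6* had log2 signals of 13.56 and 13.53, *Epcam* 13.60 and 13.54, and *Ptprc* 6.23 and 6.66. The part of leukocytes in the lower *Ccl5*, *Ccl6* and *Ccl24* was not tested. The maturation keratin *Krt20* was also lower in Axin2+ cells (-3.01 and -2.77). It is among 8 epithelial markers, all measured, of which 4 were lower on both arrays, 3 higher and 1 differed in sign. The higher were *Cdx2* (0.31 and 0.52), *Krt18* (0.45 and 0.33) and *Epcam*. The median of the 8 was -0.07, and 41.7% of all genes were lower and 41.1% higher.

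Genes of receptor signalling were lower as well, with 15 of 19 measured below 0 on both arrays, 2 above, and 4 past 1.5-fold lower. Of all genes 41.7% were lower on both arrays, 41.1% higher, and 6.92% past 1.5-fold lower. These were *Rac2* (-1.13 and -0.99), *Pik3r5* (-0.93 and -0.84), *Prex1* (-0.79 and -0.80) and *Ptk2b* (-0.52 and -0.70). *Rac2* encodes a GTPase of blood cells, and *Pik3r5* and *Prex1* encode partners of G protein subunits. Of 6 atypical receptors and platelet chemokines 4 were measured, 3 of them lower and none past 1.5-fold.

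The 21 genes measured in both experiments were set side by side, without a test, since the experiments differ in tissue and design. Higher in both KO pairs and lower on both Axin2 arrays were 7: *Ccl2*, *Ccl4*, *Ccl8*, *Ccl20*, *Ccl28*, *Cxcl16* and *Xcl1*. In the sorted pools *Ccl2*, *Ccl4* and *Xcl1* were well above background in Axin2- cells alone. In the colon *Xcl1* was well above background in the KO mice alone. The filter thus let *Xcl1* in only through the higher side of each experiment, and its pattern is no separate result. The place of *Cxcl16* rests on a different probe in each experiment, and neither of its probes alone gave this pattern. Of the 7, *Ccl20* (0.85 in KO over control, -0.89 in Axin2+ over Axin2-) and *Ccl28* (1.01 and -0.50) had the wider differences in the sorted epithelium. *Cxcl1* (0.61 and 0.57) and *Cxcl10* (1.64 and 0.18) were higher in both experiments, and *Cx3cl1* (-0.70 and -0.70) lower in both. *Ccl24* was also lower in both (-0.66, and 1.69-fold lower in Axin2+ cells, where it was not well above background). *Ccl19*, the gene that fell in KO colon, had nearly the same signal in both sorted pools (7.17 and 7.24 on array 1, 7.05 and 7.04 on array 2). *Cxcr7*, higher in Axin2+ cells, was close to 0 in KO colon.

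**Figure D5:**
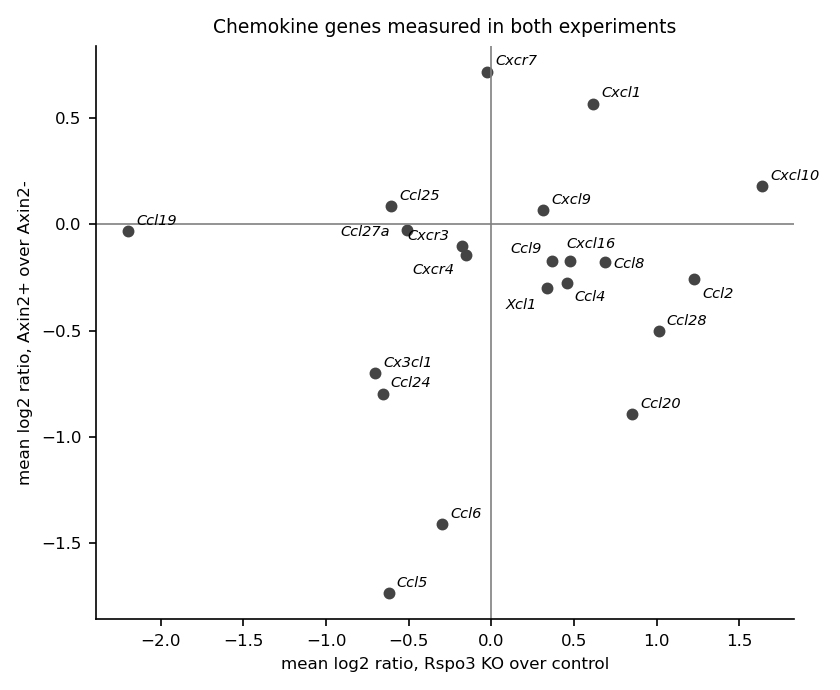
Mean log2 ratio of *Rspo3* KO over control (x axis) against that of Axin2+ over Axin2- cells (y axis) for the 21 chemokine genes measured in both experiments, with 1 point per gene. *Ccl20* and *Ccl28* lie at the lower right, *Cx3cl1* and *Ccl24* at the lower left, and *Ccl19* far left at -2.20 and -0.03.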

How the data were processed

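The authors quantified the scanned arrays with Agilent Feature Extraction. For each spot the authors deposited linear intensities (signal mean and local background of either dye), a log10 ratio (Cy5 over Cy3) made by the software, and the error of that ratio, used here as a score for weights. The series table holds the same log10 ratio.

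Intensities were background-corrected by normexp with an offset of 50 in limma (version 3.58.1, R version 4.3.3). Within-array loess gave normalised log2 ratios, and levels were set between arrays by the Aquantile method. Outlier and control spots were left out. Spots with an outlying background (66 and 6 on the KO arrays) did not enter the background fit. Spots of a probe were averaged, and the brightest probe stood for its gene. KO ratios were tested against 0 with lmFit and eBayes, and p-values of the 15372 genes were adjusted by Benjamini-Hochberg (threshold 0.05). The fit had 1 residual degree of freedom and leant on a prior spread with 6.75 degrees of freedom. On simulated data with large known changes it recovered nearly all of them, but in most runs a larger share of its calls was false than the threshold allows. Between 53.1% and 60.3% of spots per channel were well above background, and precision is limited by having so few arrays.

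Of 41174 probes, 33749 were named through RefSeq (GRCm38.p6), and the others kept the name in the array files. Probe positions are those of mm9, per the file headers. The chemokine genes and the lists were chosen with earlier results of these data known. Named are chemokine genes past the test or past 1.5-fold alike on both arrays, up to 12 in each direction, and *Ccl20*, *Ccl25*, *Ccl28*, *Cx3cl1*, *Cxcl16*, *Cxcl12*, *Cxcl13*, *Ccl5*, *Cxcl9*, *Cxcl10*, *Cxcr4*, *Cxcr5*, *Ccr6*, *Ccr7*, *Ccr9* and *Cx3cr1* whatever their values. Other chemokine genes are named as neighbours or ligand and receptor of these, after their values were seen. The values of 1 chemokine gene, which is part of the counts, are not reported here. Other backgrounds, normalisations, filters, probe rules, thresholds and fits were tried.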

Additional observations from a re-analysis of the deposited data

How the results depend on the processing

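Single genes were followed through the alternatives only if the naming rule above chose them in that experiment. Genes named as neighbours, ligands or receptors, markers and pathway genes were not followed. No gene followed changed sign among the alternatives that tested it or, for genes past 1.5-fold, in those without a test. In the KO pairs the number of chemokine genes called lower, 1 as reported, was 0 with the background fitted to all spots, with median centring, without the filter on dim probes and with the mean over probes, 2 with no background correction, with an offset of 16, on the software log ratios and on the series table, and 4 with all 4 arrays and a dye term. Called higher, 0 as reported, were 1 with no background correction, on the software log ratios and on the series table, 2 with an offset of 16 and 4 with all 4 arrays. Over all genes the calls numbered 37 as reported, 1 with the background fitted to all spots, 0 without the filter, 5 with the mean over probes, 8 with median centring, 70 with no background correction, 126 with an offset of 16, 128 on the software log ratios or the series table and 280 with all 4 arrays. Past 1.5-fold alike in both pairs, 10 higher and 7 lower became 5 and 4 with the background fitted to all spots, 4 lower with median centring, 4 and 2 at a 2-fold threshold, 15 and 10 on the software log ratios and the series table, and 14 and 9 with error weights. The median of the chemokine genes, 0.14, was 0.017 without the filter. Without replicate 1 or 2 in turn these counts were 8 to 12 higher and 6 to 9 lower, and the median 0.07 to 0.23.

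In the sorted cells, past 1.5-fold alike were 2 higher with no background correction, with an offset of 16, on the software log ratios, on the series table and with error weights, and 11 lower on the software log ratios and the series table and 10 with error weights. At a 2-fold threshold 0 were higher and 2 lower. The median, -0.17, was -0.54 on the software log ratios, on the series table and with error weights, -0.26 with an offset of 16, -0.20 with median centring, -0.18 with no background correction, -0.076 without the filter, -0.10 with both channels above background and -0.12 with the mean over probes. Without replicate 1 or 2 in turn it was -0.15 to -0.16, and the higher genes 1 to 2 (2 without array 2). Why these values moved was not tested. No paired analysis was possible because each array already sets 1 KO mouse against 1 control mouse, or the same 2 pools. Signal over background limits which genes have a level, and 2 pairs of mice limit the calls.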
